A study of Mus musculus with 4 samples.

Results

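Klf2 and 7 related genes of the Krüppel-like factor family, Klf3, Klf4, Klf5, Klf6, Klf9, Klf10 and Klf13, were followed by symbol among the 32285 genes of single-cell RNA libraries from mouse limb bone marrow. All 8 symbols were found. Their raw molecule counts (unique molecular identifiers, UMIs) and CPM values (a gene's UMIs scaled to 1000000 UMIs of its class) were taken within marker-gated stromal cells, bone cells and endothelial cells, so that a difference in level within a class could be separated from a difference in the number of bone cells. The study set mutant mice, Prx1-cre;Mettl3-fl/fl, against control mice, all C57BL/6 at P12 (postnatal day 12). In the mutant, the floxed m6A methyltransferase gene Mettl3 is combined with a Cre transgene that is active in limb mesenchyme, and the genotype of the second mutant library is labeled only as mutant. Live cells negative for CD45 and Ter119, surface proteins of blood cells, came from 3 mutant and 3 control mice. The alleles that the control mice carry, and the way the mice map to the 2 mutant and 2 control libraries, are not given in the sources used here. All p-values therefore rest on the spread among the 4 libraries, and some of that spread may be technical.

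Krüppel-like factors are transcription factors whose zinc fingers bind GC-rich and CACCC sequences, and members can compete for the same sites. KLF2 is best known in endothelium, where laminar flow raises it through the MEK5, ERK5 and MEF2 cascade, and it is a known repressor of fat cell formation. KLF4 is one of the reprogramming factors and shares many targets with KLF2. KLF3 acts mostly as a repressor, KLF5 takes part in epithelial growth and in fat cell formation, and KLF6 is an injury-responsive factor. KLF9 is a direct target gene of glucocorticoid and thyroid hormone receptors, KLF10 is an early gene of TGF-beta signaling, and KLF13 was described as a regulator of the chemokine RANTES in T cells. Prx1-cre is not known for activity in endothelium or blood.

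The sequence just upstream of Klf2 is shown because the known flow-responsive regulation of the gene runs through MEF2 factors, and that of Klf4 is shown beside it as its nearest relative in function. Both come from the RefSeq promoter table on GRCm38.p6, which matched 6 of the 8 genes. Lower case is the strand of the gene from 5′ to 3′, and capitals mark a match to the MEF2 motif on either strand. For Klf2, the last 29 of the 250 bases before the RefSeq start lie inside the gene in GENCODE and are left out of the printed 221 bases.
Klf2, chr8:72318812-72319032, plus strand: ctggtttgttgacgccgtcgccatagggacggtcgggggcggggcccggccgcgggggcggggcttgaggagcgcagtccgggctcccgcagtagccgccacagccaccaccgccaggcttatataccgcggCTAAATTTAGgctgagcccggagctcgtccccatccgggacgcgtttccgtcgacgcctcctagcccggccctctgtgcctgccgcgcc
Klf4, chr4:55532476-55532725, minus strand: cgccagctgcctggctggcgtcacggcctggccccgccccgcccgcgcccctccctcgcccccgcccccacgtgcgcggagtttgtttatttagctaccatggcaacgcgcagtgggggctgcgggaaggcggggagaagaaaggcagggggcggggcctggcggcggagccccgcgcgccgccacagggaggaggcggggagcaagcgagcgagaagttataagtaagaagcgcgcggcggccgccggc

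The Klf2 stretch holds 1 MEF2 motif match, which begins 118 bases before the RefSeq start of the gene. A MEF2 motif match is present in 2.92% of the 32851 RefSeq promoters of 250 bases that were searched. None of the other 5 matched members has one, and none of the 6 has a CArG box, a motif present in 1.47% of promoters. Matches and their positions were taken over all 250 bases, those left out of the print included. The GC-box letters GGGCGG, searched on both strands, occur 2 times before Klf2 and 4 times before Klf4, and 32.7% of promoters hold them. The letters CACCC, searched in the same way, occur once before Klf2, within the bases not printed, and not before Klf4, and 52.0% of promoters hold them. These are matches of letters and say nothing on their own about binding.

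The files held 47390414 UMIs for mutant 1, 81890483 for mutant 2, 116863081 for control 1 and 114143361 for control 2. Cells that passed the filters (1000 UMIs or more, 500 genes or more, no more than 10% mitochondrial UMIs) numbered 2628 and 4587 in mutants, against 5808 and 3635 in controls, and 27 barcodes were shared over all pairs of libraries. Stromal-gated cells were few in mutants, with 34 and 14 cells, against 944 and 46 in controls. Bone-gated cells numbered 1994 and 1199 in mutants and 314 and 42 in controls, and endothelial-gated cells numbered 46 and 887 in mutants and 27 and 544 in controls. Per the submitters' processing notes, mutant 1 and control 1 form 1 processing set and mutant 2 and control 2 another, and this set was a term in the tests within a class unless stated. Fits within a class that left out 1 library did not have this term. The 8 bone markers summed to 128600 and 124400 CPM in mutant bone cells and 192200 and 238000 CPM in control bone cells, and the 6 endothelial markers to 7402 and 6951 CPM in mutant and 6432 and 5990 CPM in control endothelial cells. Mettl3 itself stood at 3.95 and 6.08 CPM in mutant bone cells and 7.31 and 8.94 CPM in control bone cells. In endothelial cells it stood at 13.7 and 18.9 CPM in mutants and 25.5 and 19.2 CPM in controls. Tags from the 3′ end need not cover what Cre removes, and these levels are no check of the deletion.

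Klf2 (ENSMUSG00000055148, chromosome 8, 72319033 to 72321656, plus strand of mm10) was detected in every gated class of cells with a skeletal or vascular identity. In mutants its highest level was in osteocyte-like cells, the bone subtype with Mepe and Dmp1, at 875.5 and 869 CPM, followed by endothelial cells at 512 and 474 CPM. Below these, mutant stromal cells stood at 359.6 and 276 CPM, and Bglap-high bone cells, a subtype rich in osteoblast genes, stood lower at 260.3 and 259 CPM. B-lineage cells, from 219 to 366 CPM in mutants, overlapped both. Other bone cells overlapped Bglap-high cells, with 259 and 259.7 CPM in mutants, and progenitor-like bone cells, marked by genes such as Postn and Tnn, held 223 and 186 CPM. In controls the 2 libraries lay farther apart, so that osteocyte-like cells at 205 and 1028 CPM, endothelial cells at 191 and 467 CPM and other bone cells at 132 and 375 CPM all overlapped. Control Bglap-high cells held 100.3 and 139 CPM, control progenitor-like cells 41.5 and 93.4 CPM, and control stromal cells 41.6 and 62.1 CPM. The progenitor-like, other bone and osteocyte-like values of control 2 rest on 7, 9 and 5 cells. Erythroid-gated cells, taken as a class with little Klf2, held 4.77 and 6.19 CPM in mutants and 0.486 and 0.423 CPM in controls.

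**Figure D1:**
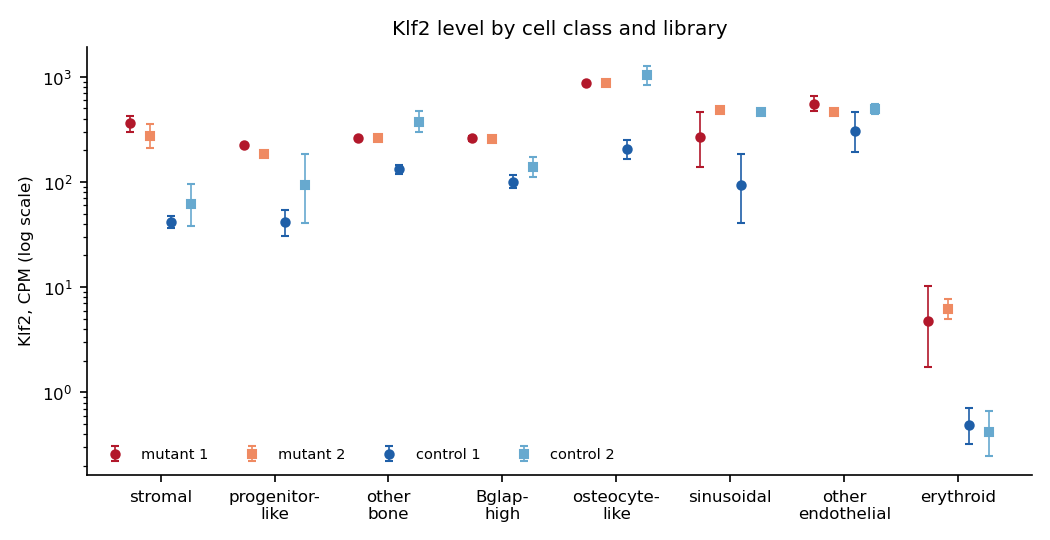
Klf2 level in CPM on a log axis, for each gated class and library, with mutant libraries in red and control libraries in blue; bars are exact 95% Poisson intervals, which cover counting error only. Stromal, progenitor-like, Bglap-high and erythroid cells of both mutant libraries lie above both control libraries, while osteocyte-like, other bone, sinusoidal and other endothelial cells overlap. Among genes of at least 10 CPM, 20.8% in stromal, 18.6% in progenitor-like and 29.9% in Bglap-high cells lie above in this way. That share was not computed for erythroid cells.

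In stromal cells, the Cxcl12 and Lepr class that supplies niche factors to blood stem cells, Klf2 was 6.13 times as high in mutants as in controls by the ratio of means. Mutant stromal cells held 359.6 CPM (exact 95% Poisson interval 300.0 to 428) and 276 CPM (209 to 358), against 41.6 CPM (36.6 to 47.2) and 62.1 CPM (38.4 to 94.9) in controls. These levels rest on 128 and 57 UMIs in mutants and 246 and 21 UMIs in controls. Both mutant libraries were above both control libraries, by 8.64-fold in the first processing set and 4.45-fold in the second. Of the 9080 genes with a mean of at least 10 CPM in stromal cells, 20.8% had both mutant libraries above both controls, and 7.16% did so with a mean at least 2-fold higher. No test was run in this class because mutant 2 has 14 gated cells, fewer than the 20 required. With a stricter gate, which left 12 and 10 mutant cells, Klf2 stood at 348 and 213 CPM in mutants and 38.7 and 58.8 CPM in controls.

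The few mutant cells in the stromal gate were not equal to control stromal cells in other respects. The 7 stromal markers were all detected in every library, but their summed level was 9028 and 10940 CPM in mutants against 35450 and 32020 CPM in controls. The 8 bone markers, also all detected, summed to 9179 and 4979 CPM in mutants and 4015 and 3779 CPM in controls. Of 5 markers of mural cells (Acta2, Myh11, Rgs5, Tagln and Notch3), 4 and 3 were detected in mutants, at 1472 and 1274 CPM in sum, and 5 and 3 in controls, at 209 and 166 CPM. Of 6 endothelial markers, 1 and 2 were detected in mutants and 5 and 1 in controls, at 8.43 and 9.69 CPM and 11.0 and 5.91 CPM in sum. The 17 genes of an immediate-early and heat-shock list, many of which respond to tissue dissociation, summed to 1748 and 1492 CPM in mutants and 3620 and 2992 CPM in controls. The part of bone-like and mural-like content and of this list in the stromal Klf2 level was not tested.

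Free RNA in droplets was read from barcodes of 10 to 100 UMIs, which the deposited matrix of mutant 1 does not cover. In mutant 2 this fraction held Klf2 at 236 CPM, from 1008 of 4274377 UMIs, against 21.9 and 23.1 CPM in the controls. Erythroid-gated cells of the same mutant library held 6.19 CPM. The part of free RNA in the levels of gated cells was not tested.

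Klf2 rose in mutant bone cells. It stood at 345 and 326 CPM in mutants and at 112 and 268 CPM in controls, from 14047 and 8418 UMIs and 765 and 270 UMIs, and both mutant libraries were above both controls, as for 37.9% of the 7371 genes that averaged at least 10 CPM. The log2 difference was 0.87 ± 0.26 (SE, 2 libraries per genotype), with an adjusted p of 0.0343 in edgeR's quasi-likelihood test with Benjamini-Hochberg adjustment over 12964 genes. In that test 11.3% of genes were called higher and 8.79% lower. The difference was unequal between processing sets, at 3.08-fold in the first and 1.22-fold in the second. Leaving out any 1 library, with the processing set term dropped as well, ended the call. The log2 difference was then 0.29 without control 1, 0.61 without mutant 1, 0.90 without mutant 2 and 1.44 without control 2. With all 4 libraries, dropping the term alone also ended the call (0.77, adjusted p = 0.220 in edgeR). The loss can therefore not be put down to a missing library alone. The 8 neutrophil markers summed to 60.7 and 267 CPM in mutant bone cells and 5.85 and 8.94 CPM in control bone cells, and their part in the Klf2 difference was not tested. The osteocyte-like cells, where Klf2 is high, made up 16.2% and 14.7% of bone UMIs in mutants and 7.06% and 9.47% in controls. Without them, a choice made after the data were seen, the difference was 0.67 and the adjusted p in edgeR was 0.0563. In that fit 2 of the KLF genes were called, Klf13 higher and Klf4 lower, where 10.4% of all genes were called higher and 8.07% lower.

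Bglap-high cells were the only bone subtype with at least 20 cells in every library, and in them Klf2 rose with less spread between libraries. Mutants held 260.3 and 259 CPM, against 100.3 and 139 CPM in controls, both above both controls as for 29.9% of 6639 genes, with 2.60-fold in the first processing set and 1.86-fold in the second. The log2 difference was 1.12 ± 0.20 (SE, 2 libraries per genotype; adjusted p = 0.00699, edgeR with Benjamini-Hochberg adjustment over 10120 genes), where 6.2% of genes were called higher and 3.09% lower. In fits that left out 1 library, with the processing set term dropped as well, the call was kept only without control 2 (1.20). The log2 difference was 0.99 without control 1, 0.99 without mutant 1 and 1.22 without mutant 2. The immediate-early and heat-shock list summed to 2323 and 3498 CPM in mutant Bglap-high cells and 1716 and 3821 CPM in controls, which overlap. The 5 mature osteoblast markers that help define the gate summed to 95010 and 105900 CPM in mutants and 187400 and 205900 CPM in controls, and the part of both lists in the Klf2 difference was not tested.

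The other bone subtypes gave values without a test. In progenitor-like cells Klf2 stood at 223 and 186 CPM in mutants and 41.5 and 93.4 CPM in controls, above both controls as were 18.6% of 8299 genes. The control values there rest on 51 and 8 UMIs. The 7 stromal markers summed to 334 and 267 CPM in mutant progenitor-like cells and 4397 and 3082 CPM in control ones. The part of this stromal-like content in the Klf2 difference was not tested. In osteocyte-like cells the mutant levels of 875.5 and 869 CPM fell between those of the controls, 205 and 1028 CPM, the higher from 98 UMIs in 5 cells. Of those 98 UMIs, 65 came from 1 cell. In other bone cells the mutant levels of 259 and 259.7 CPM also lay between the control levels of 132 and 375 CPM.

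In endothelial cells the Klf2 difference did not pass the test. Mutants held 512 and 474 CPM, against 191 and 467 CPM in controls, from 149 and 4434 UMIs and 30 and 2166 UMIs. Both mutant libraries were above both controls, as for 19.3% of 8696 genes, but the 2 libraries of the second processing set differed only by 1.01-fold. The log2 difference was 0.49 ± 0.22 (SE, 2 libraries per genotype; adjusted p = 0.432 in edgeR with Benjamini-Hochberg adjustment over 10643 genes). Without control 1, which has 27 endothelial cells, the difference was 0.06, and without control 2 it was 1.34, both with the processing set term dropped. Sinusoidal cells, the endothelium of the marrow sinuses marked by Stab2, Stab1 and Flt4, held Klf2 at 266 and 483 CPM in mutants and 94.1 and 463 CPM in controls. They were 7 of 46 and 510 of 887 endothelial cells in mutants and 15 of 27 and 480 of 544 in controls. Remaining endothelial cells held 557 and 462 CPM in mutants and 306 and 491 CPM in controls.

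The genotype effect on Klf2 in bone cells was not shown to differ from that in endothelial cells. In a joint edgeR fit with library as a block, the effect in bone minus that in endothelium was 0.08 ± 0.37 on the log2 scale (SE, 2 libraries per genotype; adjusted p = 0.987 over 12904 genes). With an SE of that size, a difference of either sign remains within the error. Across all genes in that fit 1.54% were called higher in bone and 1.77% lower, and no KLF gene was among them. The lowest adjusted p of the KLF genes was 0.183, for Klf10.

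The mesenchyme sum of stromal, bone and chondrocyte-gated cells was then split into a part from class shares and a part from levels within classes, with the 4 bone subtypes as separate classes and using the mean of both genotypes as weights. In the first processing set Klf2 stood at 345 CPM in the mutant and 79.8 CPM in the control. Of the difference of 265 CPM, 245 CPM (92.4%) came from levels within classes and 20.2 CPM from shares. In the second set Klf2 stood at 323 CPM in the mutant and 219 CPM in the control. Of the difference of 104.0 CPM, 29.2 CPM (28.0%) came from levels within classes and 74.9 CPM from shares. With control levels as weights, the within-class part was 243 CPM in the first set and 0.695 CPM in the second. The split of the second set rests on few control cells. Without the 1 osteocyte-like cell per library that holds most Klf2 UMIs, an alternative added after the data were seen, its within-class part was 70.4 of 136.7 CPM (51.5%), and that of the first set was 248.6 of 264 CPM. Among the other members, the part within classes was 49.5 and 30.6 CPM for Klf13 in the 2 sets, of total differences of 50.8 and 24.1 CPM. For Klf4 it was 34.7 CPM in the first set and -189.7 CPM in the second. For Klf3 the total differences of -61.0 and -43.0 CPM came mostly from shares, at -42.2 and -38.0 CPM.

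**Figure D2:**
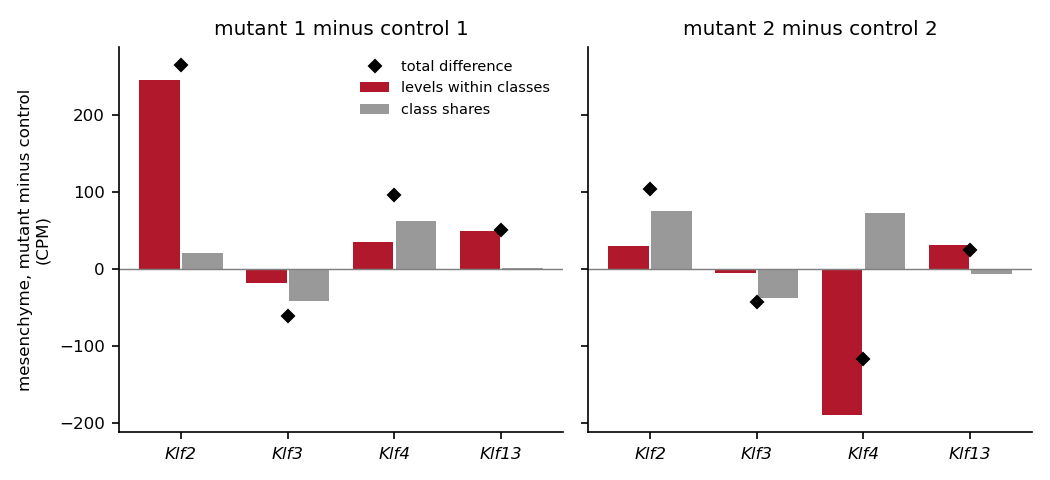
Mutant minus control difference in the mesenchyme sum, in CPM, for 4 KLF genes, split into the part from levels within classes (red bars) and the part from class shares (grey bars); diamonds give the total, and each panel is 1 processing set. For Klf2 the within-class part is 245 of 265 CPM in the first set and 29.2 of 104.0 CPM in the second, where it is 70.4 of 136.7 CPM without 1 osteocyte-like cell per library.

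Detection at equal depth gave the same order for Klf2. After each cell was thinned to 1000 UMIs, which all kept cells reach, 26.5% and 35.7% of mutant stromal cells held a Klf2 UMI, against 3.92% and 6.52% of control stromal cells. In bone cells the shares were 26.6% and 23.6% in mutants and 9.87% and 16.7% in controls, and in Bglap-high cells 21.3% and 19.1% in mutants and 9.21% and 9.52% in controls. In endothelial cells they were 37.0% and 30.0% in mutants and 14.8% and 25.0% in controls. The exact two-sided permutation test over libraries gave p = 0.333 in each of these classes, the smallest value that 2 against 2 libraries allow. Among thinned erythroid-gated cells, the share with Klf2 was 1.09% and 2.20% in mutants. In controls the share was 0 of 2898 cells, which allows a share of up to 0.104%, and 0.117%. Before thinning, the median cell had 11520 and 13550 UMIs in mutant and 18500 and 24110 UMIs in control erythroid cells, against 9812 and 12460 UMIs in mutant and 5710 and 7000 UMIs in control stromal cells. Without thinning the stromal shares were 79.4% and 92.9% in mutants and 14.6% and 19.6% in controls.

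Among the other 7 genes in stromal cells, Klf4 (ENSMUSG00000003032, chromosome 4, 55527143 to 55532466, minus strand of mm10) had the same direction as Klf2. It stood at 75.9 CPM (exact 95% Poisson interval 49.99 to 110.4) and 58.1 CPM (30.0 to 101.5) in mutants and at 10.5 CPM (8.05 to 13.4) and 5.91 CPM (0.716 to 21.4) in controls. The mutant values rest on 27 and 12 UMIs, 14 of the 27 from 1 cell, and the control values on 62 and 2 UMIs. Klf6 stood at 317 and 199 CPM in mutants and 141 and 172 CPM in controls, and Klf13 at 143 and 150.2 CPM in mutants and 84.6 and 124 CPM in controls. For Klf6 and Klf13, mutant and control libraries did not overlap, although the Poisson intervals of the second processing set did. Both mutant libraries were above both controls for Klf4, Klf6 and Klf13, as for 20.8% of genes in the class.

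Of the remaining members, Klf3, Klf9 and Klf10 had both mutant libraries below both controls in stromal cells, in part within counting error. Klf3 stood at 121 and 184 CPM in mutants and 209 and 278 CPM in controls, both mutants below both controls as for 29.6% of genes in the class. Klf9 stood at 121 and 159.8 CPM in mutants and 169 and 168 CPM in controls, and the Poisson interval of mutant 2 (110.0 to 224.5) covered both controls. Klf10 stood at 22.5 and 14.5 CPM in mutants, from 8 and 3 UMIs, and 23.0 and 26.6 CPM in controls. Its Poisson intervals in mutants (9.70 to 44.3 and 3.00 to 42.5) covered both control levels. Klf5 had no UMI in either mutant library, which allows up to 8.43 and 14.5 CPM, against 1.69 CPM in control 1 and no UMI in control 2, which allows up to 8.87 CPM. Klf5 was therefore not measurable at this depth.

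**Figure D3:**
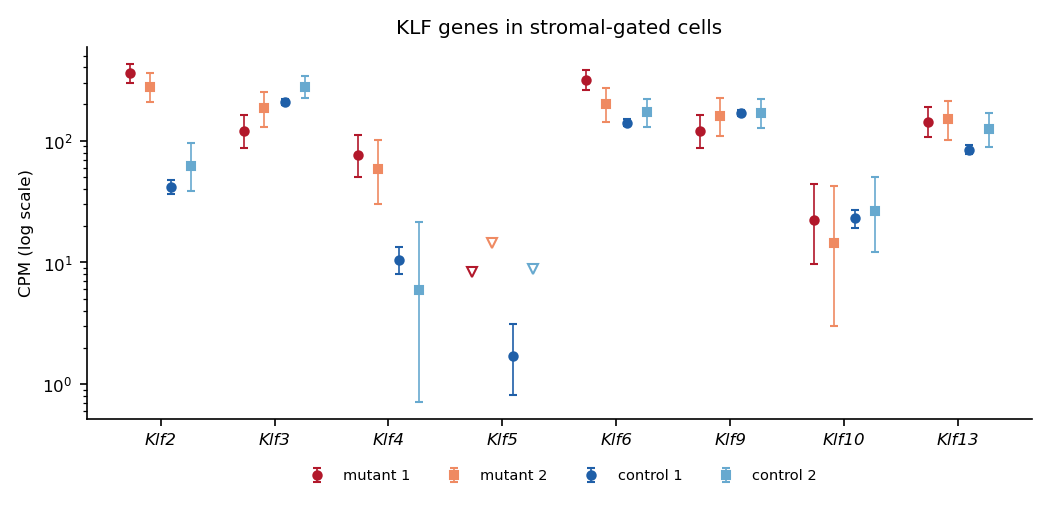
Levels of the 8 KLF genes in stromal-gated cells in CPM on a log axis, with mutant libraries in red and control libraries in blue; bars are exact 95% Poisson intervals and open triangles give the limit that a count of 0 allows. Klf2, Klf4, Klf6 and Klf13 of both mutant libraries lie above both control libraries, as do 20.8% of genes in the class. The means of Klf2 and Klf4 are 6.13 and 8.17 times as high. Klf3, Klf9 and Klf10 lie below, as do 29.6% of genes.

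In bone cells all 8 genes passed the filter on low counts, and 2 of them, Klf2 and Klf13, were called higher in mutants, where 11.3% of all genes were. None was called lower, where 8.79% of all genes were. Their median log2 difference was 0.41, against 0.04 over all genes tested. Klf13 (ENSMUSG00000052040, chromosome 7, 63886351 to 63938915, minus strand) stood at 124 and 131 CPM in mutants and 63.6 and 85.4 CPM in controls. Its log2 difference was 0.71 ± 0.19 (SE, 2 libraries per genotype; adjusted p = 0.0173, edgeR with Benjamini-Hochberg adjustment). The Klf13 call was lost when any 1 library was left out, with the processing set term dropped as well. The log2 difference was then 0.64 without mutant 1, 0.76 without mutant 2, 0.54 without control 1 and 0.86 without control 2. With all 4 libraries the call was also lost without the processing set as a term (0.70, adjusted p = 0.0868 in edgeR). The same held with cells thinned to 1000 UMIs (0.79, adjusted p = 0.310 in edgeR). All 4 bone subtypes had higher Klf13 in both mutant libraries than in the control library of the same processing set. In Bglap-high cells it stood at 81.3 and 104.8 CPM in mutants and 63.9 and 89.0 CPM in controls (adjusted p = 0.466 in edgeR).

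Klf4 in bone cells was just outside the threshold. It stood at 238 and 261 CPM in mutants and 249.4 and 518 CPM in controls, with a log2 difference of -0.63 ± 0.21 (SE, 2 libraries per genotype; adjusted p = 0.0543, edgeR with Benjamini-Hochberg adjustment). It passed with a stricter cell filter of 2000 UMIs and 5% mitochondrial UMIs (-0.54, adjusted p = 0.0283 in edgeR) and without the filter on low counts (-0.57, adjusted p = 0.00568). Without the osteocyte-like cells the difference was -0.77 and the adjusted p in edgeR was 0.0209. Without control 2 and the processing set term it was -0.15, and with cells thinned to 1000 UMIs it was 0.09 (adjusted p = 0.944 in edgeR). In Bglap-high cells Klf4 stood at 243 and 243 CPM in mutants and 274 and 478 CPM in controls, below both controls as were 19.4% of 6639 genes (log2 difference -0.59, adjusted p = 0.112 in edgeR). In the control 2 Bglap-high cells, 112 of the 295 Klf4 UMIs came from 1 cell. In Bglap-high cells both mutant libraries were thus above both controls for Klf2 and below both for Klf4, whereas in stromal cells, untested, they were above for both genes.

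The other bone results did not pass in the main fit. Klf9 (chromosome 19) stood at 121 and 81.8 CPM in mutants and 59.2 and 78.5 CPM in controls (log2 difference 0.50, adjusted p = 0.155 in edgeR). With the processing set term dropped as well, it was 0.85 without mutant 2 and 0.08 without mutant 1. With all 4 libraries, Klf9 passed when the filter on low counts was dropped (adjusted p = 0.0265 in edgeR). Klf3 (chromosome 5) stood at 61.0 and 84.9 CPM in mutants and 48.4 and 59.6 CPM in controls (0.31, adjusted p = 0.264). Klf6 (chromosome 13) overlapped, at 98.7 and 103 CPM in mutants and 66.8 and 128 CPM in controls. Klf10 (chromosome 15) also overlapped, at 14.6 and 17.4 CPM in mutants and 17.0 and 23.8 CPM in controls. Klf5 (chromosome 14) was near the limit of detection in bone, at 1.72 and 1.01 CPM in mutants and 0.585 and 0.994 CPM in controls, the last 2 from 4 and 1 UMIs. Klf5 was plain only in other classes, with 24.4 and 43.5 CPM in mutant and 62.7 and 63.0 CPM in control neutrophil-gated cells.

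In both mutant libraries, osteocyte-like cells had the highest level of each of the 8 genes among the 4 bone subtypes. The immediate-early and heat-shock list was also highest there, at 5579 and 6150 CPM in sum in mutants and 2608 and 9977 CPM in controls, and its part in these levels was not tested. Klf10, for example, stood at 22.0 and 28.7 CPM in mutant osteocyte-like cells and at 24.9 and 62.9 CPM in control ones. The osteocyte-like Klf6 level was 186 and 209 CPM in mutants and 76.7 and 94.4 CPM in controls, and the Klf9 level was 198 and 176 CPM in mutants and 106 and 83.9 CPM in controls. Both mutant libraries were above both controls for these, as for 30.5% of 7112 genes in that subtype. The control values come from 29 and 5 cells, so no test was run.

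**Figure D4:**
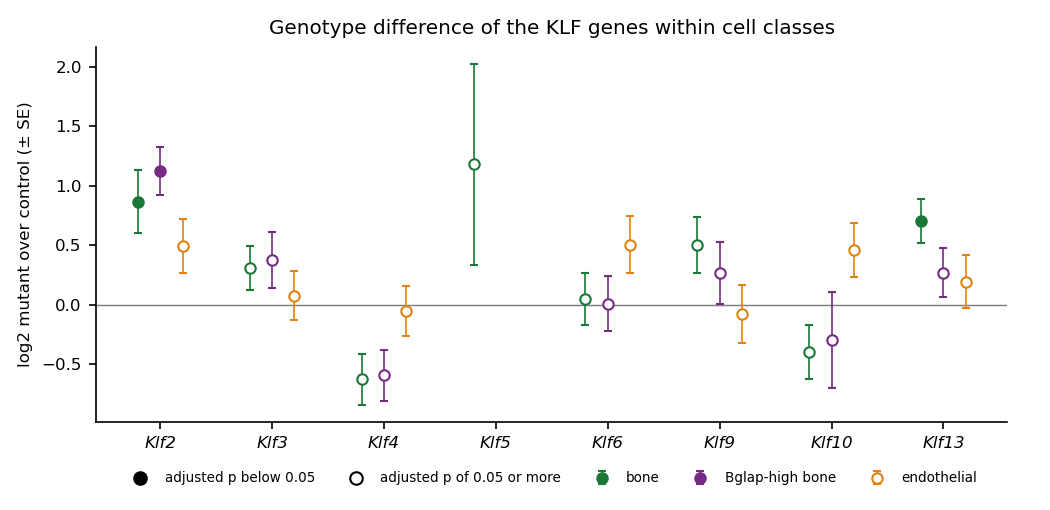
Log2 difference of mutant over control with its SE for each KLF gene in bone, Bglap-high and endothelial cells, from edgeR with 2 libraries per genotype; filled points have an adjusted p below 0.05. Klf2 is filled in bone and Bglap-high cells and Klf13 in bone cells, and the Klf4 points of bone and Bglap-high cells lie below 0.

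In endothelial cells 7 of the 8 genes passed the filter on low counts, and none was called, where 1.52% of all genes were called higher and 2.26% lower. Before adjustment the edgeR p was 0.0370 for Klf2 and 0.0449 for Klf6, and these 2 were the members below 0.05. DESeq2 called none of them either. Klf6 stood at 237 and 143 CPM in mutants and 89.2 and 127 CPM in controls (log2 difference 0.50 ± 0.24, SE, 2 libraries per genotype; adjusted p = 0.492 in edgeR). Klf10 stood at 175 and 115 CPM in mutants and 108 and 88.8 CPM in controls (0.46, adjusted p = 0.530). Klf4 stood at 268 and 362 CPM in mutants and 178 and 458 CPM in controls, and Klf3 at 209 and 225 CPM in mutants and 147 and 242 CPM in controls, both overlapping. Klf9 stood at 99.6 and 77.1 CPM in mutants and 89.2 and 85.4 CPM in controls, and Klf13 at 196 and 122 CPM in mutants and 121 and 123 CPM in controls. Endothelium held more Klf10 than any bone subtype in both genotypes.

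Outside these classes, neutrophil-gated cells held Klf6 at 335 and 470.1 CPM in mutants and 56.6 and 124 CPM in controls. The control values come from 24 and 30 cells, and no test was planned there. The share of all genes with both mutants above both controls was not computed for neutrophil-gated cells. Klf2 in the same cells stood at 179 and 263 CPM in mutants and 38.4 and 192 CPM in controls, which overlap.

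Genes around Klf2 were read from lists chosen for this tissue. Of 16 genes upstream of KLF2, 2 rose in bone cells, where 11.3% of all genes were called higher, and 14 did not pass, with a median log2 difference of 0.03 against 0.04 over all genes. Those that rose were Ccm2, whose protein restrains the MEKK3 input to KLF2 in endothelium, at 43.2 and 53.2 CPM in mutants and 15.8 and 15.9 CPM in controls (log2 difference 1.46, adjusted p = 0.000543 in edgeR), and Foxo1, at 24.0 and 29.1 CPM in mutants and 13.3 and 7.95 CPM in controls (1.03, adjusted p = 0.0106), a known activator of Klf2 in T cells. Ccm2 also rose in Bglap-high cells (1.81, adjusted p = 0.00342 in edgeR), as the only one of the 16, where 6.2% of all genes were called higher. Mef2c, a MEF2 gene known from osteocytes, stood at 473 and 689.9 CPM in mutants and 648 and 669.7 CPM in controls in bone cells (-0.32, adjusted p = 0.165 in edgeR). In endothelial cells none of the 16 passed in edgeR, where 1.52% of all genes were called higher and 2.26% lower.

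Of 11 known endothelial targets of KLF2, a list shortened after its values were known, 8 were tested in endothelial cells. Of these 1 rose, 3 fell and 4 did not pass, where 1.52% of all genes were called higher and 2.26% lower (median log2 difference -0.08, against 0.01 over all genes). Nos3, which KLF2 induces, stood at 106 and 58.8 CPM in mutants and 63.7 and 41.8 CPM in controls (adjusted p = 0.507 in edgeR). Thbd, which KLF2 also induces, fell to 219.8 and 246 CPM in mutants, against 389 and 462 CPM in controls (log2 difference -0.88, adjusted p = 0.00374 in edgeR). Vcam1 and Sele, adhesion genes that KLF2 represses, fell by 1.92 and 2.36 on the log2 scale. Edn1, which KLF2 also represses, rose by 2.55 (adjusted p = 0.0399 in edgeR), and this rested on 151 CPM in mutant 1 against 5.55 CPM in mutant 2 and 0 and 1.94 CPM in controls. Vcam1 is also a gene of sinusoidal endothelium, whose share differed between libraries as given above, and the part of that share was not tested. In bone cells 4 of the 11 were tested. S1pr1 rose and Vcam1 fell, where 11.3% of all genes were called higher and 8.79% lower. Vcam1 stood at 0.466 and 1.59 CPM in mutants and 43.6 and 15.9 CPM in controls. The 7 stromal markers summed to 171 and 132 CPM in mutant bone cells and 958 and 334 CPM in control bone cells. Their part in the Vcam1 difference was not tested.

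Of 12 regulators of fat and bone cell fate, 3 rose in bone cells, none fell and 9 did not pass, where 11.3% of all genes were called higher and 8.79% lower (median log2 difference 0.35, against 0.04). Cebpb, an early factor of fat cell formation, stood at 356 and 172 CPM in mutants and 73.1 and 60.6 CPM in controls (log2 difference 1.86, adjusted p = 0.000111 in edgeR). Cebpd stood at 293 and 171 CPM in mutants and 67.8 and 118 CPM in controls (1.28, adjusted p = 0.00914). Fabp4, a lipid carrier of fat cells and capillaries, rose by 2.12, at 9.77 and 21.6 CPM in mutants and 1.46 and 7.95 CPM in controls. Without the osteocyte-like cells its call was lost (1.18, adjusted p = 0.104 in edgeR). Cebpb and Cebpd still passed there, and Smad7 was then called higher. The 6 endothelial markers summed to 3.78 and 19.05 CPM in mutant bone cells and 0.439 and 6.955 CPM in control bone cells. Their part in the Fabp4 difference was not tested. Pparg, the fat cell factor that KLF2 represses, stood at 2.18 and 1.12 CPM in mutants and 2.92 and 0 CPM in controls in bone cells, and Runx2 and Sp7, the osteoblast factors, did not pass. In Bglap-high cells Cebpb alone rose (2.20, adjusted p = 0.000346 in edgeR), where 6.2% of all genes were called higher. In endothelial cells Pparg fell to 41.2 and 90.7 CPM in mutants, against 140.2 and 218 CPM in controls (-1.37, adjusted p = 0.000267 in edgeR). Cebpa and Fabp4 fell as well, Fabp4 to 3668 and 4104 CPM against 12810 and 12540 CPM in controls. Across all genes in that class 2.26% were called lower.

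Of the other 18 KLF and SP genes, 13 were tested in bone cells, where Klf7 rose (log2 difference 0.87, adjusted p = 0.0150 in edgeR) and Klf1 fell (-3.59), against the same shares of all genes. Klf1, an erythroid factor, stood at 0.172 and 1.97 CPM in mutants and 2.92 and 16.9 CPM in controls. The 9 erythroid markers summed to 79.5 and 451 CPM in mutant bone cells and 455 and 645 CPM in control bone cells, and their part in the Klf1 difference was not tested. Of the 17 immediate-early and heat-shock genes, Nr4a1, Hspa1a and Hspa1b rose and Fosb fell in bone cells. There 11.3% of all genes were called higher and 8.79% lower, and the median log2 difference of the list was -0.04 against 0.04. Hspa1a and Hspa1b are near-identical copies, and how their reads divide between them is uncertain. Without the osteocyte-like cells, Hspa1a in bone did not pass (0.35, adjusted p = 0.370 in edgeR). Nr4a1, Hspa1b and Fosb still passed there, and Fos was then called lower. In Bglap-high cells Nr4a1, Atf3 and Hspa1b rose and Fosb fell, where 6.2% of all genes were called higher and 3.09% lower. In endothelial cells none of the 17 passed in edgeR, where 1.52% of all genes were called higher and 2.26% lower. Klf7 in Bglap-high cells did not pass (0.66, adjusted p = 0.164), nor did it in bone without the osteocyte-like cells (0.69, adjusted p = 0.0691 in edgeR). Klf1 still passed there.

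The genes whose level followed Klf2 most closely were sought over 34 library-by-class sums with at least 20 cells, among 8639 genes with a mean of at least 10 CPM. Tiparp had the highest Spearman correlation with Klf2 at 0.88, followed by Skil at 0.82, Csnk1e at 0.78, Lrp10 at 0.78 and Btg1 at 0.77. Of the KLF genes, Klf6 ranked 41st and Klf4 53rd, both at 0.67, and Klf9, Klf13, Klf3 and Klf10 stood at 0.44, 0.40, 0.24 and 0.22. The points share libraries and depth, so these correlations are descriptions.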

How the data were processed

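Single-cell 3′ RNA libraries (10x Genomics v3.1 chemistry, per the labels' protocols) of 2 mutant and 2 control samples were used. Each deposited matrix gives UMI counts as integers for every gene in every barcode, per the file headers, and they are not normalized. Cell Ranger was run on mm10, per the submitters' processing notes, in version 5.0.1 for mutant 1 and control 1 and version 6.1.2 for mutant 2 and control 2. The matrix headers name version 5.0.1 for mutant 1 and version 4 for the others, and no annotation is named in the sources used here. The file of mutant 1 covers 3352 called barcodes, the others all barcodes.

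Cells were gated on marker genes (for example at least 4 of 7 stromal markers and a summed level of at least 50 per 10000 UMIs). The limits of the gates were chosen with the marker levels already known. Cells that passed the gates of more than 1 class, 45 and 479 in mutants and 112 and 30 in controls, were left out as possible doublets. The members and lists were chosen with earlier results of these data known. The list of KLF2 targets is given without 1 gene that is not reported here, an omission made after its values were known that changes the counts and the sign of the median of the list in endothelial cells. Named are the 8 members, listed genes that passed the threshold, a few listed genes that give context, and the 5 genes closest to Klf2.

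UMIs of all cells of a class were added up in each library. The sums were scaled by TMM, filtered with filterByExpr and tested by the quasi-likelihood method of edgeR 4.0.16 (R 4.3.3), with terms for processing set and genotype. This leaves 1 residual degree of freedom, moderated over genes with 12.1 prior degrees of freedom in bone, 9.55 in Bglap-high and 25.1 in endothelial cells. In the joint fit of bone and endothelium the prior was infinite, so its p-values rest on a spread shared by all genes. The same held in some alternative fits. Among these were the bone fits without the filter on low counts, with thinned cells, and without mutant 1 or mutant 2. Benjamini-Hochberg adjusted p-values below 0.05 were called, and the fits were tested on simulated data. CPM is a gene's share of the UMIs of its class, scaled to 1000000. Intervals are exact Poisson or binomial intervals and, like the limits for a count of 0, cover counting error only. 3′ counts were not compared between genes. Alternatives were DESeq2 1.42.0, other scaling, filters and gates, thinning, Scrublet doublet removal (scanpy 1.11.5) and leaving out each library. The last of these dropped the processing set term in the fits within a class. Positions come from GENCODE M21.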

Additional observations from a re-analysis of the deposited data

Results flagged for a closer look

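4 genes had both mutant libraries above both controls in 1 class and below both in another, as ratios of mutant over control means. Such positions are common: both mutants were above both controls for 20.8% of genes in stromal, 37.9% in bone, 29.9% in Bglap-high and 19.3% in endothelial cells, and below both for 29.6% in stromal and 19.4% in Bglap-high cells. The difference between stromal and other classes was not tested, because mutant 2 has 14 stromal-gated cells. Klf3 was at 0.627 of the control level in stromal cells, 1.35 in bone cells and 1.36 in Bglap-high cells. Klf4 was at 8.17 times the control level in stromal cells and 0.648 in Bglap-high cells. Klf9 was at 0.831 in stromal cells and 1.47 in bone cells. Klf10 was at 0.746 in stromal cells, from 8 and 3 UMIs in mutants, and 1.47 in endothelial cells. For bone against endothelium the difference was tested, and the adjusted p in edgeR was 0.978 for Klf3, 0.317 for Klf4, 0.872 for Klf9 and 0.183 for Klf10.

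Free RNA in droplets, which no comparison used, differed in 5 members beyond counting error. In mutant 2 it held Klf2 at 236 CPM, against 21.9 and 23.1 CPM in controls, and Klf4 at 132 CPM, against 26.0 and 16.8 CPM. Klf6 stood at 73.0 CPM in mutant 2, against 19.6 and 7.09 CPM in controls, Klf9 at 39.8 CPM, against 20.9 and 13.1 CPM, and Klf13 at 89.1 CPM, against 65.8 and 68.7 CPM. Free RNA of mutant 1 was not analysed here, so this is 1 mutant library. Its part in the levels of gated cells was not tested.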

How the results depend on the processing

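The processing set pairs 1 mutant with 1 control library and was a term, as a replicate block, in the main fits within a class. Fits within a class that left out 1 library did not have it, so their changes cannot be put down to the missing library alone. No paired analysis was possible by replicate number because the labels carry none. In edgeR, 2599 genes were called in bone cells and 403 in endothelial cells. Without the processing set the counts were 962 and 68, with DESeq2 1256 and 111, and with cells thinned to 1000 UMIs 343 and 53. Leaving out 1 library gave 22 to 1773 calls in bone (22 without control 1, 291 without control 2, 1017 without mutant 1) and 0 to 367 in endothelium (0 without control 2, 89 without control 1, 247 without mutant 1). Of the KLF genes, 2 were called in bone and 0 without the processing set, both among 12964 genes tested. With thinned cells 1 was called, among 7097 genes tested. Without the filter on low counts 4 were called, Klf2, Klf4, Klf9 and Klf13, where 1910 of 20428 genes were called higher and 1226 lower. The stricter cell filter gave 3 KLF calls, where 1570 of 12712 genes were called higher and 1257 lower. In endothelium no KLF gene was called under any alternative run. Klf2 in bone (0.87 on the log2 scale) stayed higher in mutants under every alternative run but did not pass without the processing set (0.77), without the osteocyte-like cells (0.67) or without any 1 library (0.29 to 1.44). Klf2 in Bglap-high cells (1.12) did not pass with thinned cells (1.28), and gave 0.99 to 1.22 without 1 library. The unthinned difference of Klf2 detection in endothelial cells was 21.7 points, against 13.6 points when thinned. The Klf2 difference of effects between bone and endothelium (0.08) ranged from -0.041 to 0.19 without 1 library. In the joint fit, library totals alone shifted the median of all genes from -0.02 to 0.17, and Klf2 then gave 0.23. Stromal Klf2 (2.62) gave 2.53 with the stricter gate and 2.36 to 2.93 without 1 library.

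Other members changed sign only where they had not passed. With thinned cells Klf4 in bone gave 0.092, Klf13 in endothelium -0.11, and in Bglap-high cells Klf9 -0.50 and Klf13 -0.33. Klf4 in endothelium gave 0.037 with DESeq2 and 0.0018 with the stricter gate. Klf6 in Bglap-high cells gave -0.00098 without the processing set, -0.032 with DESeq2 and -0.022 with RLE scaling, and -0.23 in bone without the osteocyte-like cells. Without 1 library, Klf6 ran from -0.38 to 0.45 in bone and from -0.31 to 0.26 in Bglap-high cells, and Klf9 from -0.062 to 0.52 in Bglap-high cells. In endothelium Klf3 ran from -0.16 to 0.55, Klf4 from -0.54 to 0.81 and Klf9 from -0.16 to 0.18. The difference of effects ran from -0.24 to 0.38 for Klf3 and from -0.024 to 0.49 for Klf13. The cause of these changes was not tested. Depth limits control 2 bone subtypes (5 to 21 cells) and mutant stromal cells (14 to 34 cells). The stricter gate left 19 Bglap-high cells in control 2, and Klf2 there gave 1.18 (adjusted p = 0.00669 in edgeR).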
